A study of Mus musculus with 6 samples.

Results

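Desmosome genes encode the parts of the desmosome, a spot-like junction that ties neighbouring epithelial cells together. The 10 genes described here were taken by symbol from the deposited gene lists and are *Dsp*, *Jup*, *Pkp1*, *Pkp2*, *Pkp3*, *Dsg2*, *Dsg3*, *Dsc2*, *Dsc3* and *Perp*. All 10 were found among 24393 listed genes, and all 10 were among the 13600 genes that passed the filter on low counts. In a desmosome, cadherins of the desmoglein and desmocollin families bridge the gap between cells, the armadillo proteins plakoglobin and the plakophilins bind their tails, and desmoplakin links this plaque to intermediate filaments, which in simple epithelia are made of keratins. Simple epithelia such as the gut lining use desmoglein 2 and desmocollin 2, whereas the other desmogleins and desmocollins are known mainly from stratified epithelia such as skin.

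RNA was measured in 6 libraries of KH2 cells, a mouse embryonic stem cell line built for doxycycline-inducible genes and labelled as strain C57/BL/6, of which 3 had the genotype CONTROL and 3 the genotype HOXA13. The HOXA13 cells carried the human HOXA13 gene with a FLAG tag, from clones chosen after targeting, and the sources do not say how the CONTROL replicates were derived. Cells of both groups were differentiated towards definitive endoderm for 6 days on M15 feeder cells, a mesoderm-derived line, with Noggin, CHIR, Activin-A and basic Fibroblast Growth Factor. The labels give doxycycline at 1.25 µg/ml from day 4, a sort on day 6 for cells positive for CXCR4 and E-cadherin, and 1 more day with doxycycline before RNA was taken. They give this protocol for both groups and do not say how the CONTROL cells differed or whether their induction was the same.

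The libraries held 12279884 to 17331638 counts, and the floor of 3 counts corresponded to 0.176 to 0.240 CPM (counts relative to the normalised library size), which covers counting error only. Mouse *Hoxa13* had 0 to 10 counts in CONTROL, against 0 to 5 in HOXA13, while a gene listed under a human identifier without a symbol had 0 counts in each CONTROL library and 2497, 7666 and 6572 in the HOXA13 libraries. CONTROL replicate 2 stood apart, with a Spearman correlation across genes of 0.908 and 0.931 with the other CONTROL replicates, which had 0.977 with each other. Epithelial markers were low in CONTROL replicate 1. The summed level of 10 such genes was 1852, 7397 and 5144 CPM in CONTROL replicates 1, 2 and 3, against 9233, 9071 and 10176 CPM in HOXA13, while 15 mesenchymal and feeder genes summed to 9751, 2713 and 8091 CPM in CONTROL, against 2240, 5742 and 5682 CPM in HOXA13. *Fn1*, the most abundant of the 15, had a log2 fold change of 0.35. After each library was offset by its chromosome median, *Fn1* stood at -0.22. Without *Fn1* the other 14 summed to 6377, 680 and 4364 CPM in CONTROL, against 243, 1112 and 706 CPM in HOXA13. Of 10 definitive endoderm markers, *Eomes* was the most abundant, at 49.0 to 111 CPM in CONTROL and 24.4 to 41.9 CPM in HOXA13, without overlap (edgeR adjusted p = 0.141, DESeq2 adjusted p = 0.00616). *Gata4* ranged from 13.1 to 31.9 CPM and *Gata6* from 5.69 to 35.8 CPM over the 6 libraries. *Sox17* ranged from 0.975 to 4.84 CPM, *Cer1* had 0 in each library, and the sorting marker *Cxcr4* was between 2.25 and 11.3 CPM over the 6 libraries. The 8 pluripotency genes summed to 39.6, 1047 and 80.7 CPM in CONTROL, against 403, 166 and 196 CPM in HOXA13.

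The comparison asked how desmosome transcripts differ between differentiated cells with and without HOXA13. The fitted levels of *Pkp3*, *Dsg2* and *Dsc2* were 2.75-fold to 3.51-fold higher in HOXA13, those of *Dsp* and *Jup* 1.56-fold and 1.42-fold higher, and in these 5 genes every HOXA13 library lay above every CONTROL library. *Pkp2* and *Perp* differed by 1.09-fold and 1.25-fold with overlapping groups, and *Pkp1*, *Dsg3* and *Dsc3* stayed below 10 CPM. The quasi-likelihood test of edgeR, adjusted by Benjamini-Hochberg, called 0 of the 10 genes, where it called 36 of 13600 genes higher in HOXA13 (0.265%), and the lowest adjusted p was 0.164. At an unadjusted p under 0.05, 6 of the 10 were higher in HOXA13, against 8.05% of all tested genes, and 0 of the 10 were lower, against 6.02%. The 5 genes without overlap stand against 11.5% of all tested genes, and the fitted log2 fold change was above 0 for 10 of 10, against 48.8%. *Dsg3* and *Dsc3* were above the filter level in only 1 CONTROL library each, which favoured a higher HOXA13 value. Without them, 5 of 8 genes had an unadjusted p under 0.05 and 8 of 8 a fold change above 0.

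The call depended on the test and on 1 library. DESeq2, the study's tool, called *Pkp3* and *Dsc2* with adjusted p of 0.00598 and 0.0185, 2 of the 10 against 3.49% of all genes called higher. limma voom with sample quality weights called 5 of 10, namely *Dsp*, *Jup*, *Pkp3*, *Dsg2* and *Dsc2*, against 9.11%. Without CONTROL replicate 2, edgeR called 3 of 10, *Pkp3*, *Dsg2* and *Dsc2*, against 7.92%, with adjusted p of 0.0106, 0.00569 and 0.00535. Without that library the HOXA13 values lay above the CONTROL values for 8 of 10 genes, against 24.8% of tested genes. These 8 include *Dsg3* and *Dsc3*, whose only CONTROL library above the filter level was replicate 2. Its removal favoured a higher HOXA13 value for them. The others were *Dsp*, *Jup*, *Pkp3*, *Dsg2*, *Dsc2* and *Perp*. CONTROL replicate 2 was the highest CONTROL library for 7 of the 10 genes, and CONTROL replicate 1 was the lowest of the 6 libraries for 7.

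**Figure D1:**
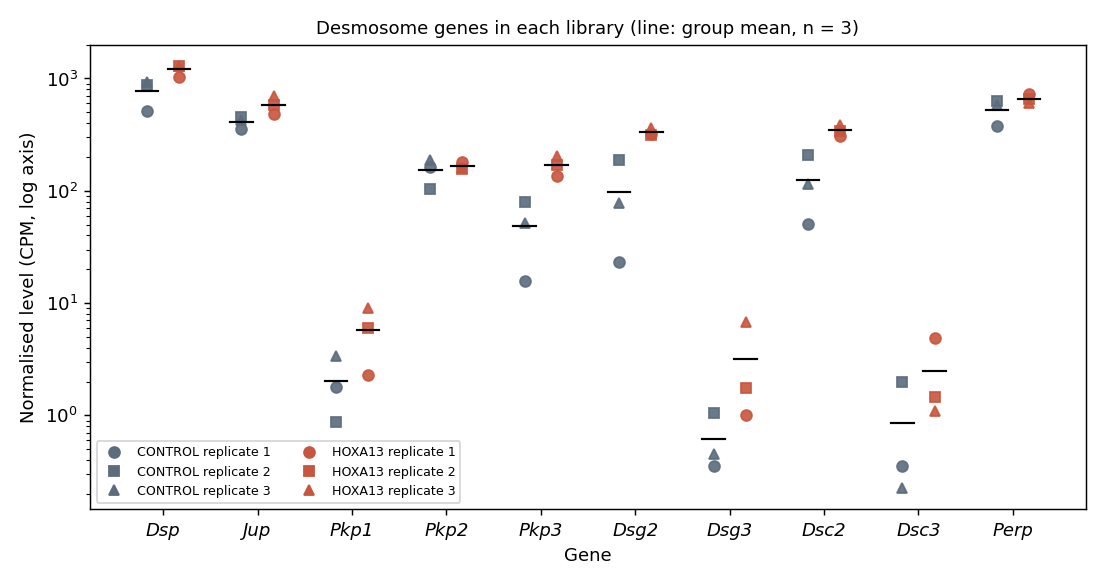
Normalised level (CPM, log axis) of the 10 desmosome genes in each of the 6 libraries, with grey symbols for CONTROL, red symbols for HOXA13 and a black line for each group mean (n = 3). For *Dsp*, *Jup*, *Pkp3*, *Dsg2* and *Dsc2* the 3 HOXA13 points sit above the 3 CONTROL points, and the CONTROL points of *Dsg2* spread 8.06-fold.

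*Dsp* encodes desmoplakin, the plaque protein that binds intermediate filaments (mm9, chr13:38243197-38290446, plus strand). It was at 513, 881 and 936 CPM in CONTROL replicates 1, 2 and 3, against 1033, 1299 and 1292 CPM in HOXA13. The lowest HOXA13 library was 1.10-fold above the highest CONTROL library, so the groups were separate but close. The means were 777 ± 230 and 1208 ± 151 CPM (SD, n = 3), and the log2 fold change was 0.64 ± 0.24 (SE) with an edgeR adjusted p of 0.296. Without CONTROL replicate 1 it was 0.39. Of the 75-base stretches of *Dsp*, 2.99% also occur in *Gm10129*, which overlaps it on the opposite strand, and the strand setting of the counting is not given in the sources used here.

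*Jup* encodes plakoglobin, an armadillo protein shared by desmosomes and adherens junctions (mm9, chr11:100230272-100259077, minus strand). Its levels were 357, 455 and 425 CPM in CONTROL, against 482, 577 and 699 CPM in HOXA13, again without overlap. The means of 412 ± 50.3 and 586 ± 109 CPM (SD, n = 3) gave a log2 fold change of 0.51 ± 0.19 (SE), with an edgeR adjusted p of 0.277. Genes of chromosome 11 had a median of -0.17 on the same scale. Their median deviation from each gene's mean log2 level was 0.37 in CONTROL replicate 1 and -0.12 to -0.03 in the other libraries. After each library was offset by its chromosome median *Jup* stood at 0.61 ± 0.24 (SE), with an edgeR adjusted p of 0.345.

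The stretches around the start sites of these plaque genes, from 250 bases before to 50 after, are shown as examples: *Dsp* and *Jup* were 2 of the 5 genes higher in every HOXA13 library, and of the 10 genes they are those matched in the promoter table. Both are GC-rich, 73.0% for *Dsp* and 60.7% for *Jup*, against a median of 52.7% over 32851 promoters of the same length (RefSeq, GRCm38.p6, chr13:38151044-38151343 plus strand and chr11:100397741-100398040 minus strand). Capitals mark CAGGTG, the E-box bound by ZEB and SNAI factors, searched on both strands.
Dsp: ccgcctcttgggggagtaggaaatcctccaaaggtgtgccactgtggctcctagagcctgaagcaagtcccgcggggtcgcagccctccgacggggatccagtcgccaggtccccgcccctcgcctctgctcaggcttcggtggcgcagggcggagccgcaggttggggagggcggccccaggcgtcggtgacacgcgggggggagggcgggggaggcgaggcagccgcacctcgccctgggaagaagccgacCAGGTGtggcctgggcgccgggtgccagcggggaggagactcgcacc
Jup: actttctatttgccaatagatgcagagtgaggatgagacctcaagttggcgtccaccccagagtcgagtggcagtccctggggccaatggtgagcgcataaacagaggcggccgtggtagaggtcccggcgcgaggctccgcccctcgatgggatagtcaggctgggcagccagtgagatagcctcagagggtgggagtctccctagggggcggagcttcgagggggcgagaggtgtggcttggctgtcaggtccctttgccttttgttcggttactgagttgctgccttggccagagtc
The E-box letters occur 1 time in the *Dsp* stretch, starting 4 bases after the start site, and 0 times in that of *Jup*, while 20.2% of all promoters hold them. The Grainyhead-like letters AACCNGTT, held by 2.09% of promoters, and the HOXA13-type letters CAATAAA, held by 4.60%, occur in neither stretch. A match is a description of the letters and no evidence of binding.

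Among the plakophilins, which bind desmoplakin and gather desmosomal cadherins, *Pkp3* was the one whose groups did not overlap. *Pkp3* (mm9, chr7:148264117-148276409, plus strand) was at 15.7, 78.8 and 51.5 CPM in CONTROL, against 137, 169 and 206 CPM in HOXA13. Every HOXA13 library was above every CONTROL library, and the lowest CONTROL library was replicate 1. The means of 48.7 ± 31.6 and 171 ± 34.7 CPM (SD, n = 3) gave a log2 fold change of 1.81 ± 0.50 (SE), with an adjusted p of 0.164 in edgeR. It was 2.33 without CONTROL replicate 2 and 1.37 without CONTROL replicate 1.

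*Pkp2*, the plakophilin of simple epithelia and heart muscle (mm9, chr16:16213411-16272805, plus strand), was at 162, 104 and 188 CPM in CONTROL, against 182, 158 and 158 CPM in HOXA13. The groups overlapped, and the means were 152 ± 42.9 and 166 ± 13.7 CPM (SD, n = 3). The log2 fold change was 0.13 ± 0.22 (SE), with a 95% interval from -0.39 to 0.65 and an adjusted p of 0.856 in edgeR. It was -0.09 with limma voom and -0.10 without CONTROL replicate 2, so the direction depended on the setting.

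*Pkp1*, best known from the upper layers of stratified epithelia (mm9, chr1:137767972-137815784, minus strand), had 25, 11 and 45 counts in CONTROL, against 30, 103 and 149 counts in HOXA13. The groups overlapped, since HOXA13 replicate 1 at 2.31 CPM was below CONTROL replicate 3 at 3.38 CPM. The log2 fold change was 1.52 ± 0.74 (SE), with an adjusted p of 0.414 in edgeR. Genes of chromosome 1 had a median of 0.54 on that scale, and after the chromosome offset *Pkp1* stood at 0.97.

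Set per kilobase of the longest coding transcript, the 3 plakophilins together made 61.1, 62.8 and 82.6 CPM per kb in CONTROL, against 109, 113 and 126 CPM per kb in HOXA13. *Pkp3* was 8.82%, 43.0% and 21.4% of this sum in CONTROL replicates 1, 2 and 3, against 42.8%, 51.2% and 55.8% in HOXA13, while *Pkp1* never passed 1.53%. The share of *Pkp3* in HOXA13 replicate 1 was just below that in CONTROL replicate 2, so the groups overlapped. The log2 ratio of *Pkp3* to *Pkp2* within a library differed by 1.89 between the groups, with p = 0.2 in a two-sided exact permutation test and an adjusted p of 0.4 over 4 such ratios. With 3 libraries against 3 this test cannot go below 0.1. The difference was 1.16 without CONTROL replicate 1 and 2.62 without CONTROL replicate 2. The log2 ratio of *Pkp1* to *Pkp2* differed by 1.11 with overlapping groups (exact permutation p = 0.2, adjusted p = 0.4). It ranged from 0.70 without HOXA13 replicate 3 to 1.68 without HOXA13 replicate 1. With all exons of a gene counted as its length, the mean share of *Pkp3* was 59.1% in place of 50.0% in HOXA13. In CONTROL it was 31.2% in place of 24.4%.

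**Figure D2:**
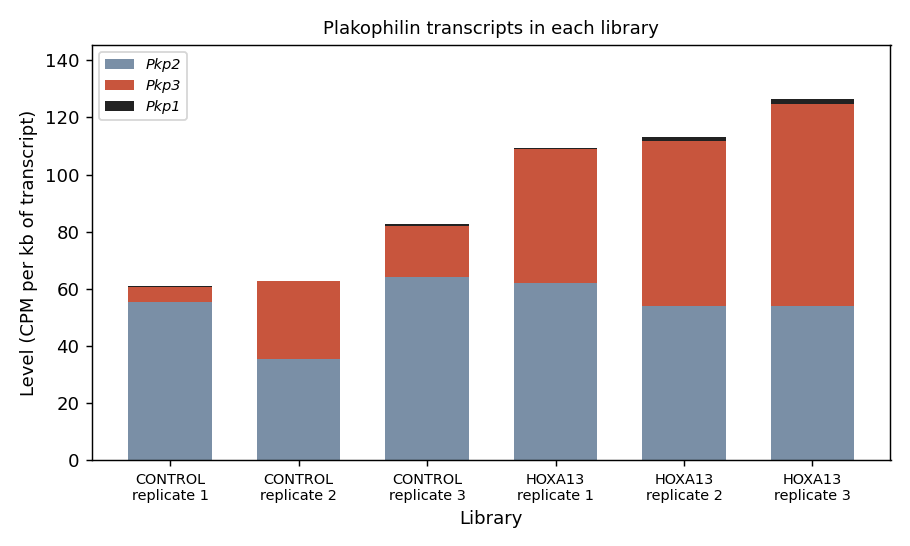
Level of *Pkp2*, *Pkp3* and *Pkp1* in each library, in CPM per kb of transcript, stacked so that the height of a bar is the plakophilin sum. The *Pkp2* segments span 35.6 to 64.2 CPM per kb in CONTROL and 53.8 to 62.0 CPM per kb in HOXA13, and the *Pkp3* segments make up 42.8% to 55.8% of the HOXA13 bars.

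The cadherins of simple epithelia were the next group. *Dsg2*, which encodes desmoglein 2 (mm9, chr18:20716575-20763022, plus strand), was at 23.4, 189 and 77.9 CPM in CONTROL, against 323, 314 and 362 CPM in HOXA13. The HOXA13 libraries lay close together and above all CONTROL libraries, which differed 8.06-fold among themselves. The means were 96.6 ± 84.2 and 333 ± 25.6 CPM (SD, n = 3), and the log2 fold change was 1.79 ± 0.61 (SE) with an adjusted p of 0.243 in edgeR. Without CONTROL replicate 2 the log2 fold change was 2.70, and without CONTROL replicate 1 it was 1.30. *Dsg2* overlaps *Gm16090* on the opposite strand.

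*Dsc2*, which encodes its partner desmocollin 2 (mm9, chr18:20189134-20218055, minus strand), was at 50.4, 210 and 115 CPM in CONTROL, against 305, 343 and 386 CPM in HOXA13. As for *Dsg2*, CONTROL replicate 1 was lowest and replicate 2 the nearest to the HOXA13 libraries, without overlap. The means of 125 ± 80.2 and 344 ± 40.4 CPM (SD, n = 3) gave a log2 fold change of 1.46 ± 0.44 (SE), with an adjusted p of 0.190 in edgeR. It was 2.04 without CONTROL replicate 2 and 1.06 without CONTROL replicate 1.

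*Dsg3* and *Dsc3*, the cadherins of the deeper layers of stratified epithelia, were sparse, and near the floor in CONTROL replicates 1 and 3. *Dsg3* (mm9, chr18:20668805-20705360, plus strand) had 5, 13 and 6 counts in CONTROL, against 13, 30 and 111 counts in HOXA13, and HOXA13 replicate 3 alone held most of them. *Dsc3* (mm9, chr18:20119431-20160598, minus strand) had 5, 25 and 3 counts in CONTROL, against 63, 25 and 18 counts in HOXA13, with replicate 1 highest. The groups overlapped in both genes, whose place among the tested genes rests mainly on the HOXA13 libraries. The log2 fold changes were 2.35 ± 1.01 and 1.51 ± 1.12 (SE), with adjusted p of 0.350 and 0.622 in edgeR. *Dsg3* stood at 1.14 without HOXA13 replicate 3, and *Dsc3* ranged from 0.56 without HOXA13 replicate 1 to 3.03 without CONTROL replicate 2. Per kilobase, *Dsg2* made 97.5% to 99.6% of *Dsg2* and *Dsg3* together, and *Dsc2* made 98.6% to 99.8% of *Dsc2* and *Dsc3* together, over the 6 libraries. The log2 ratios within a library did not separate the groups, with a difference of -0.80 for *Dsg3* over *Dsg2* (exact permutation p = 0.4) and -0.53 for *Dsc3* over *Dsc2* (exact permutation p = 0.5). These differences rest on the pseudocount of 0.5 CPM, which is above some of the CONTROL values, and were -0.37 and -0.05 with 0.1 CPM. When each library was left out they ranged from -1.40 without HOXA13 replicate 3 to -0.19 without CONTROL replicate 1 for *Dsg3* over *Dsg2*, and from -1.15 without HOXA13 replicate 1 to -0.11 without HOXA13 replicate 3 for *Dsc3* over *Dsc2*.

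*Perp*, a membrane protein of desmosomes first known as a target of p53 (mm9, chr10:18564877-18576879, plus strand), was at 380, 626 and 581 CPM in CONTROL, against 723, 656 and 603 CPM in HOXA13. The groups overlapped, as HOXA13 replicate 3 was below CONTROL replicate 2. The means of 529 ± 131 and 661 ± 60.0 CPM (SD, n = 3) gave a log2 fold change of 0.32 ± 0.21 (SE), with a 95% interval from -0.17 to 0.81 and an adjusted p of 0.565 in edgeR. *Perp* stood at 0.11 without CONTROL replicate 1.

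**Figure D3:**
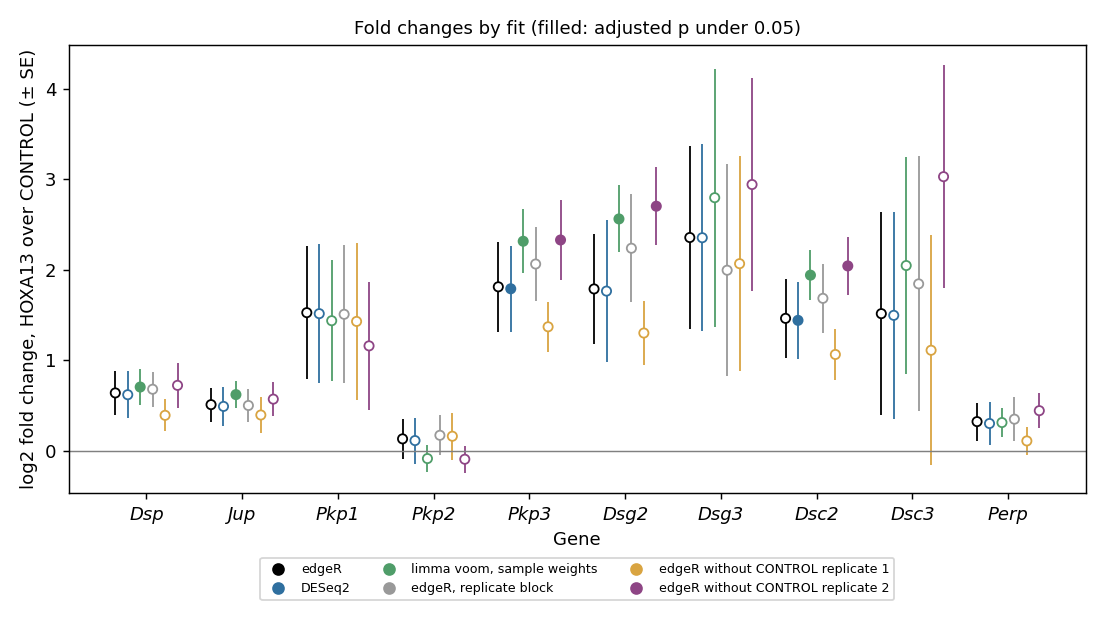
Fitted log2 fold change (HOXA13 over CONTROL, ± SE) of each desmosome gene under 6 fits, with filled points where the adjusted p over all tested genes was under 0.05. Filled points are found for *Pkp3* and *Dsc2* under DESeq2, for *Pkp3*, *Dsg2* and *Dsc2* without CONTROL replicate 2, and for *Dsp*, *Jup*, *Pkp3*, *Dsg2* and *Dsc2* under limma voom.

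Compared per kilobase, the order of the levels in HOXA13 was led by *Perp* at 348 ± 31.6, *Jup* at 183 ± 33.9, *Dsp* at 127 ± 15.9 and *Dsc2* at 74.4 ± 8.73 CPM per kb (SD, n = 3). *Pkp3* at 58.4 ± 11.9, *Dsg2* at 57.8 ± 4.44 and *Pkp2* at 56.6 ± 4.68 CPM per kb followed and lay within their spread of each other. *Pkp1*, *Dsg3* and *Dsc3* were at 1.24, 0.770 and 0.465 CPM per kb. In CONTROL, *Perp*, *Jup* and *Dsp* also led, at 278, 129 and 81.4 CPM per kb, but *Pkp2* at 51.7 came before *Dsc2* at 27.0, *Dsg2* at 16.8 and *Pkp3* at 16.7. With all exons as the length, *Dsp* came before *Jup* in HOXA13 and the other places did not move.

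Each level was next set beside *Cdh1* of the same library, the gene of E-cadherin, by which the cells had been sorted and which stands for the adherens junction. *Cdh1* was at 192, 1292 and 702 CPM in CONTROL, against 1732, 1690 and 1893 CPM in HOXA13, so it was low in CONTROL replicate 1 as the desmosome cadherins were. On the log2 (CPM + 0.5) scale, *Dsg2* minus *Cdh1* was -3.01, -2.77 and -3.16 in CONTROL, against -2.42, -2.43 and -2.38 in HOXA13. *Dsg2* was thus 0.57 closer to *Cdh1* in HOXA13, without overlap, with p = 0.1 in a two-sided exact permutation test, the smallest this design allows, and 0.5 after adjustment over 10 genes. *Perp* moved the other way, by -1.31, also without overlap and with p = 0.1 in the exact permutation test. *Pkp3* differed by 0.39 with overlapping groups (exact permutation p = 0.2), and by 0.27 to 0.53 when each library was left out. *Dsc2* differed by 0.01 (exact permutation p = 1), and *Jup*, *Dsp* and *Pkp2* by -1.16, -0.98 and -1.49 with overlapping groups (exact permutation p of 0.2, 0.3 and 0.4). Without CONTROL replicate 1 these became -0.50, -0.49 and -0.65, and that of *Perp* became -0.77. Without CONTROL replicate 2 they became -1.70 for *Jup*, -1.47 for *Dsp*, -2.35 for *Pkp2* and -1.78 for *Perp*. The sparse genes *Pkp1*, *Dsg3* and *Dsc3* differed by -0.38, -0.23 and -0.52, with overlapping groups (exact permutation p of 0.8, 0.6 and 0.6) and a direction that turned when a library was left out. In bulk RNA, fewer cells of a type and less RNA per cell cannot be told apart.

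**Figure D4:**
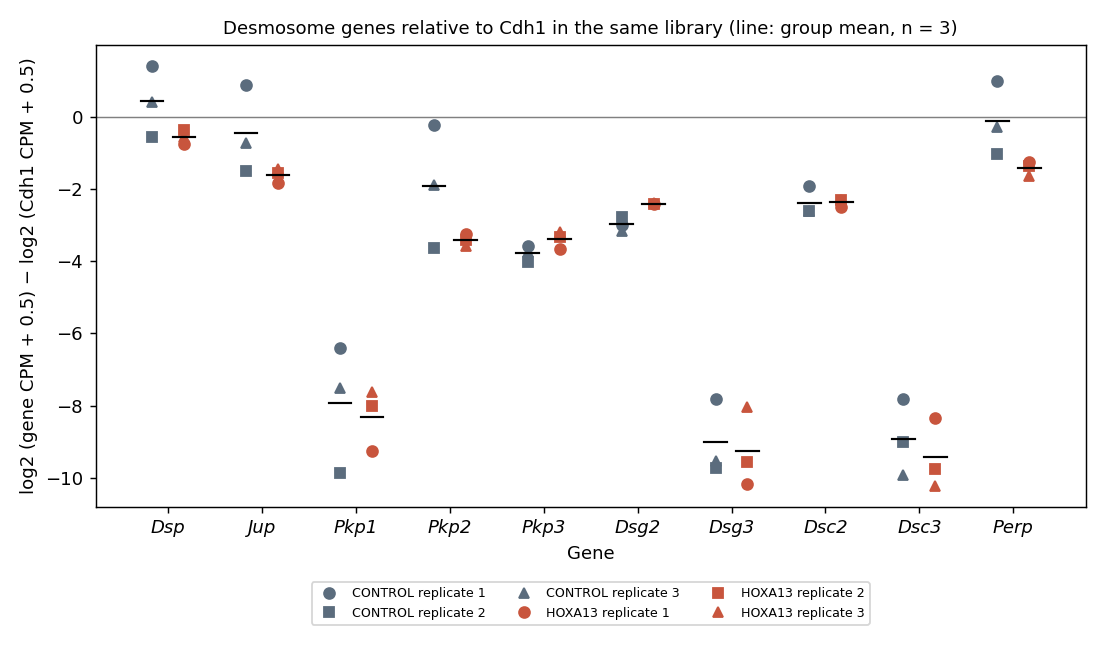
Level of each desmosome gene relative to *Cdh1* in the same library, as a difference of log2 (CPM + 0.5), with grey symbols for CONTROL, red symbols for HOXA13 and lines for group means (n = 3). *Dsg2* lies at -3.16 to -2.77 in CONTROL, against -2.43 to -2.38 in HOXA13, and *Perp* at -1.05 to 0.98 in CONTROL, against -1.65 to -1.26 in HOXA13.

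Across the 6 libraries the desmosome genes followed *Dsp* to different degrees, with Pearson's r on the log2 (CPM + 0.5) scale of 0.965 for *Pkp3*, 0.936 for *Dsc2*, 0.921 for *Dsg2*, 0.896 for *Jup*, 0.848 for *Perp*, 0.726 for *Dsg3*, 0.677 for *Pkp1*, 0.422 for *Dsc3* and 0.0664 for *Pkp2*. The libraries share 2 groups and 1 low CONTROL replicate, so these values are a description. Among 10718 other tested genes that averaged 5 CPM or more, those most like *Dsp* were *Actn4* with r = 0.997, *Sash1* with r = 0.995, *Errfi1* and *Bcar3* with r = 0.994 and *Dlg1* with r = 0.993.

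Genes that work with the desmosome were examined as lists, and edgeR called 0 of 41 tested genes in them, while DESeq2 called 12 of the 41, against 5.65% of all tested genes in either direction. limma voom called 23 of 41, against 15.4%, and edgeR without CONTROL replicate 2 called 21, against 14.2%. Of 10 other desmosome and plaque genes, 5 passed the filter, all 5 had log2 fold changes above 0 (48.8% of all tested genes) and 2 were higher at an unadjusted p under 0.05 (8.05%). These were *Ppl*, which encodes periplakin, at 16.7, 94.4 and 47.6 CPM in CONTROL, against 167, 187 and 268 CPM in HOXA13 (log2 fold change 1.97, edgeR adjusted p = 0.161), and *Evpl*, which encodes envoplakin, with 1.56 and an edgeR adjusted p of 0.126. DESeq2 called both of them. *Eppk1* and *Pkp4* stood at 0.68 and 0.21 on the log2 scale. The remaining tested gene passed the filter mainly through the HOXA13 libraries, which favoured a higher HOXA13 value. It was at 1.21, 0.640 and 0 CPM in CONTROL, against 0, 2.58 and 2.79 CPM in HOXA13. *Dsg1a*, *Dsg1b*, *Dsg1c*, *Dsg4* and *Dsc1*, cadherins of skin and hair, had group means between 0 and 0.685 CPM.

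Of 12 tested intermediate filament genes, 5, all of them keratins, were higher in HOXA13 at an unadjusted p under 0.05 (8.05% of all tested genes) and 2 were lower (6.02%). The other 4 tested keratins and *Des* did not pass it. The largest log2 fold changes were those of the keratins *Krt15*, at 3.49 ± 0.89 (SE), and *Krt20*, a marker of differentiated gut epithelium, at 2.34 ± 0.69 (SE), with edgeR adjusted p of 0.146 and 0.183. The lowest were *Vim*, which encodes the filament protein of mesenchymal cells, at -2.64 ± 0.78 (SE), and *Nes* at -0.98 ± 0.40 (SE), with edgeR adjusted p of 0.186 and 0.326.

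Of 9 adherens junction genes, 2 were higher (8.05% of all tested genes) and 1 was lower (6.02%) at an unadjusted p under 0.05. *Pvrl4*, which encodes nectin 4, and *Cdh1* had log2 fold changes of 1.64 and 1.28, with edgeR adjusted p of 0.169 and 0.351, and *Pvrl4*, on chromosome 1, stood at 1.09 after the chromosome offset. *Cdh11* and *Cdh2*, cadherins of mesenchymal cells, had -1.79 and -1.34, with edgeR adjusted p of 0.620 and 0.241.

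Among 15 tested regulators of epithelial genes, 6 were higher (8.05% of all tested genes) and 3 lower (6.02%) at an unadjusted p under 0.05. *Grhl1* and *Ovol1*, which encode transcription factors of epithelia, had log2 fold changes of 2.97 ± 0.49 and 2.05 ± 0.46 (SE), with edgeR adjusted p of 0.0619 and 0.111. *Zeb2* and *Zeb1*, which encode repressors of epithelial genes, had -2.58 ± 0.76 and -1.26 ± 0.54 (SE), with edgeR adjusted p of 0.186 and 0.349. *Trp63*, the master regulator of stratified epithelia, had group means of 0.274 and 0.0586 CPM and did not pass the filter. The summed level of 8 stratified squamous genes was 22.8 to 64.8 CPM in CONTROL, against 53.7 to 86.3 CPM in HOXA13. *Lor* was the most abundant of them, at 10.9, 53.6 and 25.8 CPM in CONTROL, against 60.8, 42.5 and 40.4 CPM in HOXA13. Of the 4 tested, 0 had an unadjusted p under 0.05 in edgeR. The 6 genes of heart muscle, another tissue with desmosomes, summed to 4.08 to 14.7 CPM in CONTROL, against 3.00 to 8.85 CPM in HOXA13. The part of the differing epithelial and mesenchymal marker levels in the desmosome values was not tested.

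**Figure D5:**
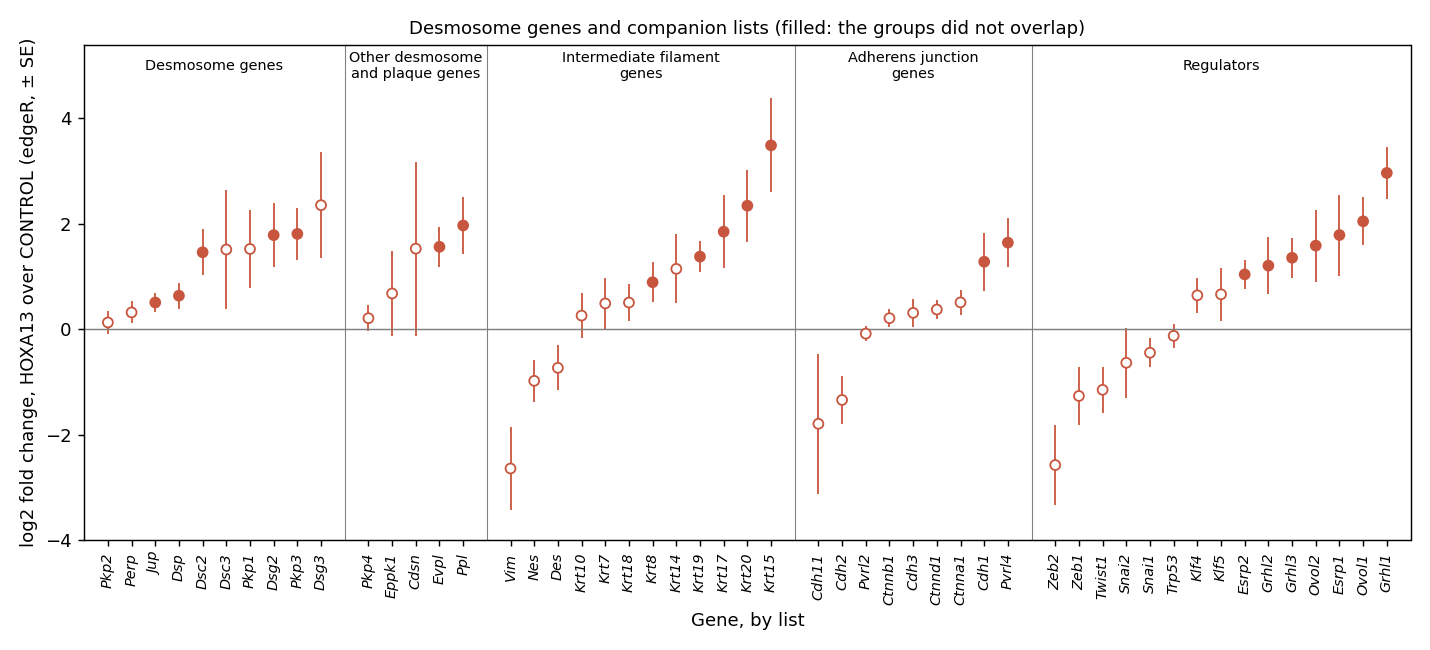
Fitted log2 fold change (HOXA13 over CONTROL, edgeR, ± SE) of the tested desmosome genes and the 4 companion lists, each list sorted by its value, with filled points where the 3 HOXA13 libraries lay wholly above or below the 3 CONTROL libraries. Keratin and Grainyhead-like genes lie above 0, and *Vim*, *Zeb2* and *Cdh11* lie below -1.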

How the data were processed

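The deposited files gave, for each sample, the raw count of reads at every gene symbol. The authors made them from stranded poly-A libraries (75-base reads), aligned to mm9 with TopHat2 2.0.14 and counted with HTSeq 0.6.1p1 per the submitters' processing notes. The annotation, strand option and handling of multiply aligned reads are not given in the sources used here. Reads of overlapping genes are therefore uncertain.

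Groups and replicate numbers were taken from the sample titles. The analysis used edgeR 4.0.16 (R 4.3.3) with filterByExpr (minimum count 10, minimum total 15), TMM scaling and the quasi-likelihood test of the group over all 6 samples. Benjamini-Hochberg adjustment ran over all 13600 tested genes with a threshold of 0.05. The study calls the samples biological replicates but the labels name no separate cultures, so p-values measure only the spread between these samples. Replicates differed by more than sampling noise (chi-square over its degrees of freedom, 16.5 to 136). Ratios within a library used CPM + 0.5 and an exact permutation test. Alternatives were DESeq2 1.42.0, limma 3.58.1 voom, other scalings and filters, the newer edgeR method, a replicate block, chromosome offsets and leaving out each library. Positions are those of GENCODE on mm9, and promoter sequences those of RefSeq. Genes of chromosome 18 were left out of the promoter search, and 2 of the other desmosome genes were matched.

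The code was tested on simulated data. The 10 genes and the companion lists were chosen with earlier results of these data known. All 10 are named, with at most 4 tested genes per companion list, those of the largest and smallest fold changes, and the 5 genes most like *Dsp*. Cell type markers, and genes under the filter that are named beside the lists, were chosen after their values were seen.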

Additional observations from a re-analysis of the deposited data

How the results depend on the processing

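The number of desmosome genes past the threshold was 0 in edgeR, 2 with DESeq2, 5 with limma voom and between 0 and 3 when each library was left out, the 3 being reached without CONTROL replicate 2. The number higher without overlap, an alternative chosen after seeing the data, was between 5 and 8, and 8 without that same library. Those 8 include *Dsg3* and *Dsc3*, which then passed the filter through the HOXA13 libraries alone. Of the companion genes, 0 passed in edgeR, 2 without a filter beyond 1 count, 1 with the newer edgeR method, 12 with DESeq2, 23 with limma voom and between 0 and 21 when a library was left out, 21 without CONTROL replicate 2. Calls over all tested genes rose in the same settings, to 0.921% without the filter, 0.779% with the newer edgeR method, 5.65% with DESeq2, 15.4% with limma voom and 14.2% without that library. With a replicate block 0 desmosome genes and 0 companion genes passed, as did 0 of all 13600 tested genes (1392 at an unadjusted p under 0.05). The replicate numbers came from the titles only. Deviations of same-numbered samples correlated by -0.238, -0.302 and 0.12, against -0.254 to 0.329 for samples of different number. With 3 samples in each group these values cannot decide whether same-numbered samples were paired. All exons as the length, also chosen after seeing the data, moved the mean share of *Pkp3* to 59.1% in HOXA13 and 31.2% in CONTROL. The causes of these moves were not tested.

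The direction of *Pkp2* reversed with limma voom, at -0.088, and ranged from -0.096 to 0.30 when each library was left out, below 0 without CONTROL replicate 2. Relative to *Cdh1*, *Dsg3* reversed to 0.21 with a pseudocount of 0.1 CPM. When each library was left out, *Pkp1* ranged from -1.35 to 0.38, *Dsg3* from -0.84 to 0.37, *Dsc2* from -0.11 to 0.25 and *Dsc3* from -1.07 to 0.032 relative to *Cdh1*. *Dsg3* and *Dsc3* had as few as 5 and 3 counts in a library, near the floor of 3.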
